A study of Mus musculus with 2 samples.

Results

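The genes described here are the mouse cytochrome P450 genes of families 1 to 4, taken as every gene row whose symbol is Cyp followed by a family digit from 1 to 4, a subfamily letter and a gene number. The rule found 75 of 55487 gene rows, made up of 3 genes of family CYP1, 48 of CYP2, 7 of CYP3 and 17 of CYP4, and all 75 are protein-coding in the GENCODE M21 annotation. They were measured by single-cell RNA sequencing in mTECs, the epithelium of the thymic medulla, which shows proteins of other organs to developing T cells. The cells came from the thymus of wild-type female C57BL/6J mice aged 4 weeks that had been injected intraperitoneally for 7 consecutive days with PBS or with 15 mg/kg spermidine, a polyamine, dissolved in PBS. CD45+ blood cells had been depleted, and mTEChi together with mTEClo that had passed the Aire stage had been sorted, before cells of 4 samples were marked with hashtag antibodies and sequenced in 1 run. Hashtags HT4 and HT5 marked PBS replicates 1 and 2, and HT2 and HT3 marked spermidine replicates 1 and 2. The labels do not say that replicates came from separate animals, so every p-value measures only the spread between these samples, which may be technical.

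Cytochrome P450 enzymes of these families are haem proteins of the endoplasmic reticulum that receive electrons from NADPH-cytochrome P450 reductase (Por). CYP1, CYP2 and CYP3 enzymes oxidise drugs, environmental chemicals, steroids and fatty acids, and CYP4 enzymes hydroxylate the far end of fatty acid chains. Most are made mainly in the liver, some in the gut, the airway, the olfactory mucosa or the epidermis, and several are known autoantigens of liver disease. In mTECs, the autoimmune regulator Aire drives transcription of many genes of such organs, each in a small share of cells. Other mTECs, called mimetic cells, take on the lineage programmes of tuft, microfold, neuroendocrine, keratinocyte, secretory or enterocyte and hepatocyte cells.

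After filtering, 3739 cells with 64419803 UMIs (unique molecular identifiers, each a counted RNA molecule) were assigned to the 4 samples. The samples held 1078 and 784 cells for PBS and 1099 and 778 for spermidine, and between 13316095 and 19893017 UMIs each. Cells fell into 13 classes named from marker lists, with Aire-stage cells (1220) and tuft-like cells (989) as the largest. The Aire-stage class includes clusters, described below, in which Aire itself was not raised against all other cells. Aire-stage cells made up 21.3% and 30.6% of the PBS samples and 39.8% and 40.2% of the spermidine samples, while tuft-like cells made up 34.7% and 28.2% against 21.1% and 20.8%. The sort removed most but not all blood cells, since 98 thymocyte-like and 64 myeloid-like cells remained. The median Aire-stage cell held 20217 UMIs and the median thymocyte-like cell 5463.5, so detection per cell differed between classes in depth as well as in biology. Intervals and detection limits given below cover counting error only.

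P450 genes of families 1 to 4 were detected broadly across the medullary epithelium but thinly within it. At least 1 UMI was found for 74 of the 75 genes, and the share among all 21974 protein-coding genes was 92.6%. The exception was Cyp2d11, with 0 UMIs in 3739 cells. A UMI was found in 10 or more cells for 52 genes and in 100 or more for 17, and the median gene had 54 UMIs in 18 cells. In 46 genes the RNA was rare, here meaning found in fewer than 1% of the cells. Rare genes were 62.2% of the P450 genes with a UMI, against 22.5% of protein-coding genes with a UMI. Each of the 4 samples held a UMI of 55 of the genes. At the level of cells, 3221 (86.1%) held a UMI of at least 1 of the genes.

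A few genes made up most of this RNA. Cyp2a5, the coumarin 7-hydroxylase of liver and olfactory mucosa, gave 42.2% of the 34139 P450 UMIs, with 14417 UMIs in 1101 cells and up to 347 in a single cell. Cyp2g1, an olfactory enzyme, followed with 2838 UMIs in 746 cells. Cyp4f16 had 2152 UMIs spread over 1206 cells, more cells than Cyp2a5 occupied. Cyp2f2, the enzyme of airway club cells that activates naphthalene, had 1931 UMIs in 294 cells. The 10 genes with the most UMIs, which also included Cyp2j6, Cyp3a13, Cyp4f13, Cyp4v3, Cyp2b19 and Cyp4f17, gave 81.8% of the UMIs. Cyp4f13 (1060 UMIs in 839 cells), Cyp4v3 (1047 in 705), a fatty acid hydroxylase, and Cyp4f17 (711 in 555) were the broad ones, with at most 12 UMIs in any cell and 34.0% to 34.2% of their UMIs in Aire-stage cells, close to that class's share of all UMIs. Cyp4f14 was the opposite, with 255 UMIs in 46 cells and up to 58 in 1 cell.

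The RNA of most of the genes lay mainly in Aire-stage cells. These were 32.6% of the cells and held 37.7% of all UMIs, yet 48 of the 74 detected genes had over 50% of their UMIs there and 18 had over 90%. Among rare genes this was so for 39 of 46 (84.8%), beside 73.9% of rare protein-coding genes, and the median share was 84.0% beside 82.9%. Rare P450 genes therefore lay near the level of other rare genes in this respect, and it is the large share of rare genes in the families that differed from the background. The abundant genes mostly lay elsewhere: 21.4% of Cyp2a5 UMIs were in Aire-stage cells.

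**Figure D1:**
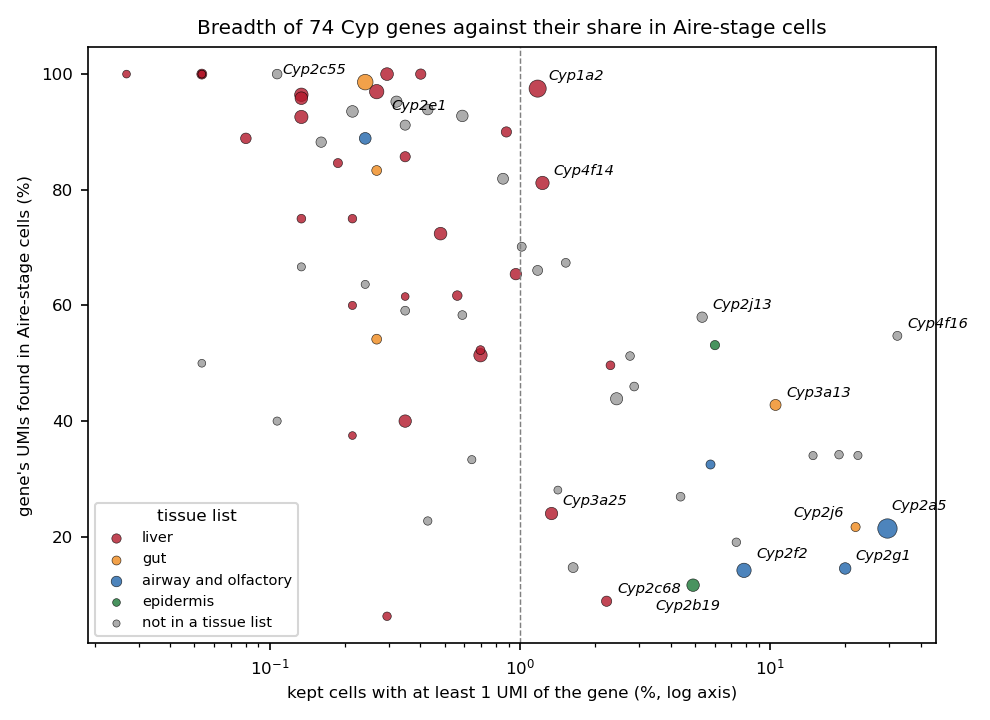
Each point is one P450 gene. The horizontal axis is the percentage of the 3739 kept cells with a UMI (log scale), the vertical axis the percentage of the gene's UMIs in Aire-stage cells, the point size grows with the UMIs per positive cell, and colours mark the tissue lists. Most genes left of the dashed line at 1% of cells lie above 50%, while Cyp2a5, Cyp2g1 and Cyp2f2 lie to the right and low.

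The promoters of the genes were compared by short sequence motifs, as a description with no test. A RefSeq table (build GRCm38.p6, 1 start per gene) gave the 250 bases before the start for 62 of the 75 genes and for 27025 genes in all. A TATA box, searched as TATAAA on both strands, was found in 24 of the 62 (38.7%) and in 12.98% of all genes. It was present in 20 of the 41 genes with over 50% of their UMIs in Aire-stage cells (48.8%) and in 4 of the other 21 (19.05%). The core of the element bound by the aryl hydrocarbon receptor Ahr, searched as GCGTG, was found in 12 of 62 (19.4%) and in 28.3% of all genes, and CCAAT in 40.3% and 34.5%. Alternating CA, searched as CACACA because the study's title concerns Z-DNA, was found in 15 of 62 (24.2%) and in 17.7% of all genes, and in 24.4% and 23.8% of the same 2 groups of P450 genes. The median GC content was 48.2% against 52%. These matches describe letters and not bound sites. The windows of 5 genes that recur below are printed 5′ to 3′ on the gene's strand, with TATAAA and GCGTG in capitals. Cyp1a1 (chr9:57697363-57697612, plus strand) and Cyp1a2 (chr9:57683656-57683905, minus strand) are neighbours found almost only in Aire-stage cells, Cyp2a5 (chr7:26835089-26835338, plus strand) was the most abundant gene, and Cyp2f2 (chr7:27119705-27119954, plus strand) and Cyp2b19 (chr7:26756892-26757141, plus strand) lay mainly in one mimetic class each.
Cyp1a1: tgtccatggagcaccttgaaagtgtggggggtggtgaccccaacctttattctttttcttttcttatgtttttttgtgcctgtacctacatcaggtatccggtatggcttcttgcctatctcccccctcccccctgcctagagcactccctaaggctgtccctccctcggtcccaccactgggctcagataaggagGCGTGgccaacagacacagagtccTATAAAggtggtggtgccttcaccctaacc
Cyp1a2: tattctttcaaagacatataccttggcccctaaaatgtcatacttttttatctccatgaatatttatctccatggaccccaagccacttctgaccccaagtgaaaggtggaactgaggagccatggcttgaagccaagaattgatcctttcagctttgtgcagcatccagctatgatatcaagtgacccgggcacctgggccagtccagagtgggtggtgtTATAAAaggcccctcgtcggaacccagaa
Cyp2a5: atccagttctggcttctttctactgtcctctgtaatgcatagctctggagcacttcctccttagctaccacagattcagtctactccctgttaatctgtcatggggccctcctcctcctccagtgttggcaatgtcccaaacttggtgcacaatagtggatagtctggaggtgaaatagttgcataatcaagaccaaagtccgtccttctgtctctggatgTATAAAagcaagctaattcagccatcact
Cyp2f2: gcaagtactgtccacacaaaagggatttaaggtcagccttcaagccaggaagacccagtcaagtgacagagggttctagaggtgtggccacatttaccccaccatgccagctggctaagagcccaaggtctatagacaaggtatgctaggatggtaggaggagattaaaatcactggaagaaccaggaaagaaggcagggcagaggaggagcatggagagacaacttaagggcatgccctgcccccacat
Cyp2b19: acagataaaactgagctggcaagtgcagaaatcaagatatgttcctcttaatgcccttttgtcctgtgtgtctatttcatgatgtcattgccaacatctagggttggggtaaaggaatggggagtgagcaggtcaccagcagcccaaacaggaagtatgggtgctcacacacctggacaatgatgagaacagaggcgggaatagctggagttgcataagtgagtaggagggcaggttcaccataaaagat
TATAAA lies 30, 29 and 29 bases before the start in Cyp1a1, Cyp1a2 and Cyp2a5, and GCGTG lies 54 bases before it in Cyp1a1. The Cyp2f2 and Cyp2b19 windows hold neither motif on either strand.

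Mimetic classes differed in their leading P450 genes. The levels below are CPM, a gene's UMIs scaled to the total of the class, in PBS replicates 1 and 2 and spermidine replicates 1 and 2, in that order. In microfold-like cells, the mimics of gut and airway M cells, Cyp2a5 reached 2731, 2408, 2187 and 1389 CPM. This was 2179 ± 572 CPM (SD, n = 4), the highest level of any of the genes in any class, and 88.6% of the 167 cells held a UMI (exact binomial 95% interval 82.8% to 93.0%). In thymocyte-like cells, which should lack the gene, 12 of 98 cells (12.2%, interval 6.5% to 20.4%) held one, at the lower median depth of 5463.5 against 11115 UMIs. Goblet or secretory-like cells were also high in Cyp2a5, at 1258, 1117, 1550 and 1938 CPM (mean 1466 ± 363), and overlapped with the microfold-like values. In enterocyte or hepatocyte-like cells Cyp2a5 was at 321, 1227, 323 and 171 CPM and in neuroendocrine-like cells at 435, 812, 51.4 and 155 CPM. PBS replicate 2 stood above the others in both of these classes. In neuroendocrine-like cells single cells held 46.9%, 54.6%, 48.9% and 77.5% of the Cyp2a5 UMIs of the 4 samples.

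The airway gene Cyp2f2 was led by goblet or secretory-like cells, where it had 407, 451, 396 and 986 CPM and a UMI in 42.4% of 158 cells. Spermidine replicate 2 was the high sample, and the other three lay close together. Immature mTECs followed with 153, 78.2, 65.8 and 67.3 CPM, so that all 4 secretory values lay above every value of the other tested classes. Cyp2s1, another P450 of airway epithelium, was highest in the small ciliated-like class (43 cells) at 53.8 ± 29.1 CPM (SD, n = 4). Its 397 UMIs were spread over 216 cells.

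Keratinocyte-like cells carried the epidermal enzymes. Cyp2b19, an arachidonic acid epoxygenase of skin keratinocytes, was at 465, 447, 505 and 297 CPM and was found in 83.9% of the 93 cells. Cyp4f39, the fatty acid hydroxylase that helps to make acylceramides of the skin barrier, was at 59.8, 74.5, 80.9 and 78.3 CPM. Cyp2j6 was at 111, 115, 100 and 162 CPM there. For these 3 genes no value of another tested class reached the lowest keratinocyte-like value, although spermidine replicate 2 held only 10 such cells. Cyp2g1 (188 ± 71.8 CPM) and Cyp4f18 (70.5 ± 52.3 CPM), a leukotriene B4 hydroxylase, also had their highest means there but overlapped with other classes. Cyp2b19 was among the 10 leading genes of the keratinocyte-like cluster, and Cyp2f2 among those of the secretory-like cluster, although all 75 genes were left out of the clustering.

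Tuft-like cells were led by Cyp2g1, with 131, 120, 133 and 125 CPM. This was 127 ± 6.01 CPM (SD, n = 4), with a UMI in 47.5% of the 989 cells, and it varied least between samples among the leading genes. Cyp2j6 followed in tuft-like cells at 50.8 CPM, and Cyp2j9 had its highest mean there at 16.9 ± 3.54 CPM. Cyp3a13, a CYP3A drug oxidase of gut and liver, was highest in enterocyte or hepatocyte-like cells at 206, 292, 276 and 121 CPM and was found in 58.3% of 132 cells. The mean was 224 ± 77.9 CPM. Cyp2j13 was highest in microfold-like cells, at 53.2, 38.3, 95.8 and 119 CPM, against 13.8 CPM in Aire-stage cells. Several genes had no clear leading class: Cyp4f16 (77.6 ± 30.7), Cyp4v3 (59.4 ± 24.3) and Cyp4f14 (15.1 ± 13.4 CPM) had their highest means in enterocyte or hepatocyte-like cells and overlapped with others. Cyp2u1 was at 27.2 CPM there and 26.7 in neuroendocrine-like cells, and Cyp2c68 was at 28.4 ± 6.52 CPM in neuroendocrine-like and 27.1 in microfold-like cells. Cyp4f13 was highest in neuroendocrine-like cells at 30.5 ± 4.94 CPM and Cyp4f17 in keratinocyte-like cells at 26.8 ± 17.1. Cyp3a25, another CYP3A oxidase, was at 41.98 ± 53.9 CPM in secretory-like cells, a spread larger than its mean.

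In the remaining classes no mean exceeded that of Cyp2a5 in Aire-stage cells. Cyp2a5 led Aire-stage cells at 161, 122, 140 and 89.6 CPM (mean 128 ± 30.5), followed by Cyp4f16 at 48.2 ± 4.56. Cyp4f16 led transit-amplifying cells, the dividing precursors, at 20.4 ± 3.28 CPM and myeloid-like cells at 25.3 ± 12.3 CPM. Cyp2f2 led immature mTECs at 91.1 ± 41.7 CPM, and Cyp2j6 led the 36 muscle-like cells at 21.3 ± 15.0 CPM. In thymocyte-like cells the highest gene was Cyp2a5 at 10.2, 63.6, 29.8 and 9.55 CPM. Free RNA from other cells and captured doublets of the same sample were not removed, so these Cyp2a5 levels in thymocyte-like cells were read as background. A background level for the other genes was not estimated.

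**Figure D2:**
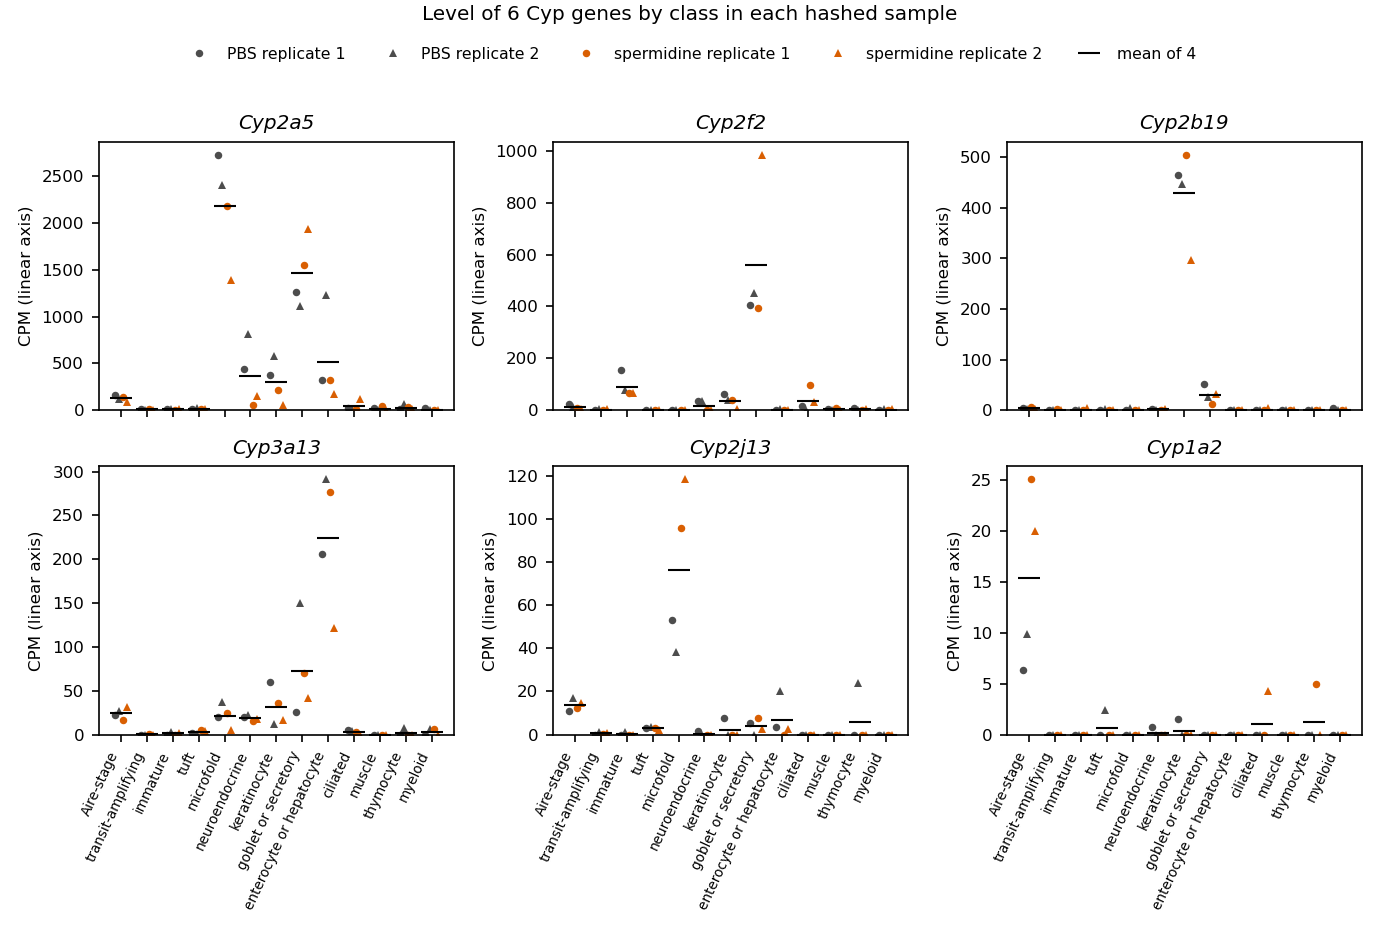
Level in CPM (linear axis from 0) of Cyp2a5, Cyp2f2, Cyp2b19, Cyp3a13, Cyp2j13 and Cyp1a2 in each class, with 1 point per sample, PBS and spermidine in different colours and a black bar for the mean of the 4 samples. Cyp2f2, Cyp2b19, Cyp2j13 and Cyp1a2 each have a class whose 4 samples stand above those of the other tested classes, and for Cyp2a5 the microfold-like values run from 1389 to 2731 CPM.

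A gene was called restricted to a class when its 4 values there all lay above every value of every other class, over 11 classes with at least 10 cells in each sample. Among 56 P450 genes with at least 20 UMIs, 8 met this, and of 24365 genes of any kind 19.3% did. They were Cyp1a2, Cyp2c37 and Cyp2c54 in Aire-stage cells, Cyp2j13 in microfold-like, Cyp2j6, Cyp2b19 and Cyp4f39 in keratinocyte-like and Cyp2f2 in secretory-like cells. Restricted here refers to the level and not to where most UMIs lay. Cyp2j13 and Cyp4f39 had 58.0% and 53.1% of their UMIs in Aire-stage cells, and Cyp2j6 had 10.8% in keratinocyte-like cells. The count rose to 16 without spermidine replicate 2 (26.6% of all genes) and to 13 with coarser clusters (22.9%). Aire-stage cells had the highest mean for 18 of the 56 (32.1%, against 16.9% of all genes). Enterocyte or hepatocyte-like cells had it for 12 (21.4% against 6.14%) and keratinocyte-like cells for 9 (16.1% against 9.76%). This background was not matched for rarity: 28 of the 56 were rare, and rare genes of any kind lay mostly in Aire-stage cells, as given above. Of the 12 genes highest in enterocyte or hepatocyte-like cells, 0 were restricted to them. Some had a spread above their mean, such as Cyp3a11 (17.4 ± 23.6 CPM). Transit-amplifying and myeloid-like cells were highest for 0 of the 56, against 8.48% and 6.33% of all genes. Microfold-like cells were highest for 5 (5.14% of all genes), secretory-like for 4 (4.32%), neuroendocrine-like for 3 (13.6%), tuft-like for 2 (10.3%), thymocyte-like for 2 (11.9%) and immature cells for 1 (7.16%). These are descriptions with no test.

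**Figure D3:**
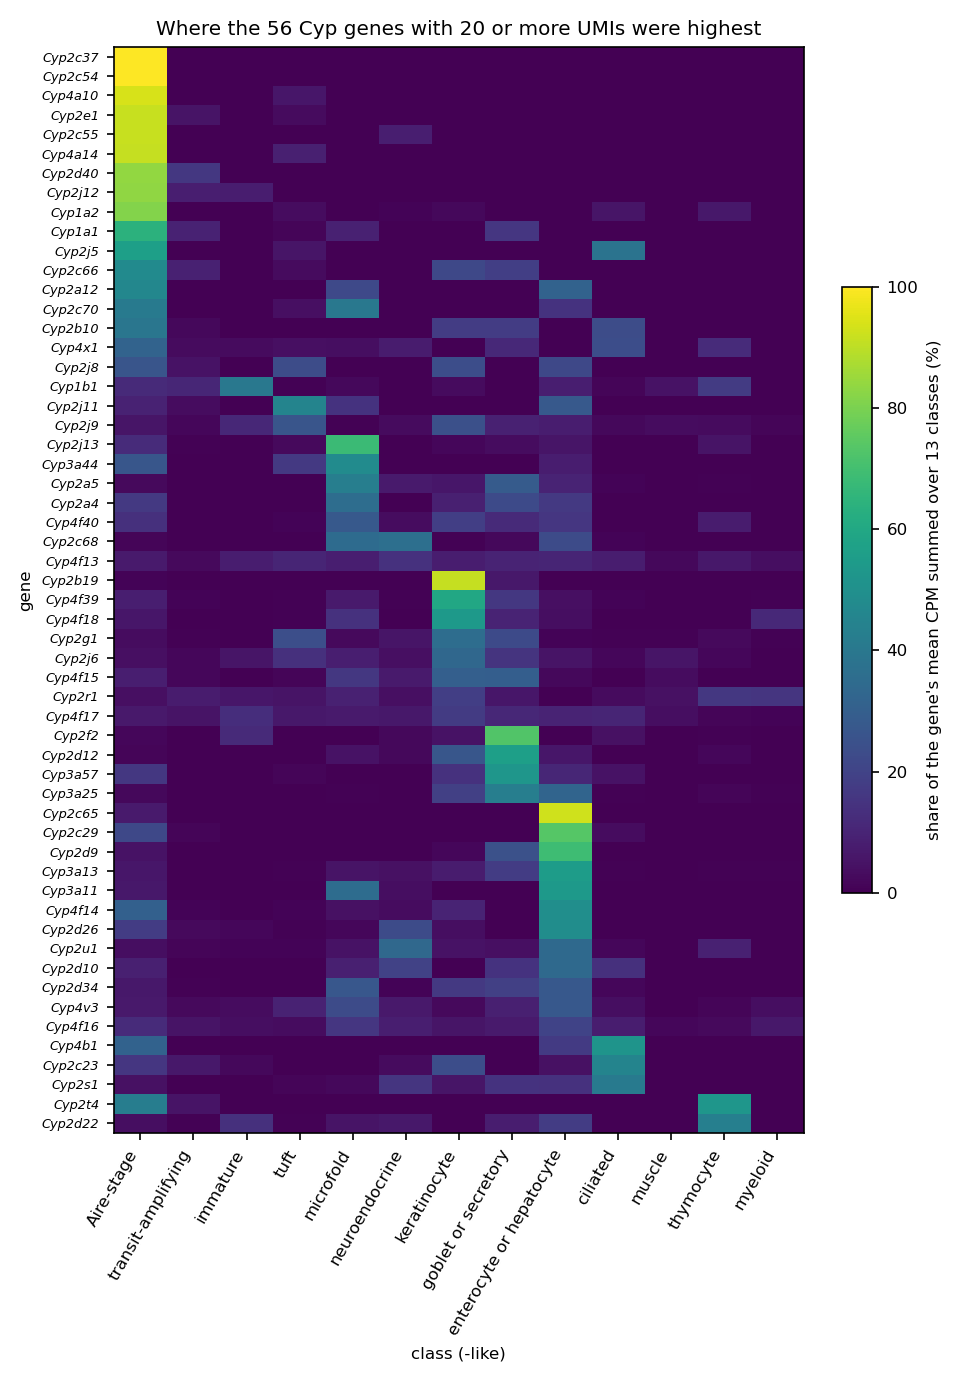
Rows are the 56 P450 genes with at least 20 UMIs and columns the 13 classes. Colour gives the class's share, in percent, of the gene's mean CPM summed over the classes. Bright colours are high shares. A block of genes is bright in the Aire-stage column alone, and the others spread over the enterocyte or hepatocyte-like, keratinocyte-like, microfold-like and secretory-like columns.

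Secretory-like, keratinocyte-like, microfold-like and enterocyte or hepatocyte-like cells carried more different P450 genes than Aire-stage cells, and the other mimetic classes did not by more than the spread between samples. Each cell was thinned to 5000 UMIs for this, which left out 434 shallower cells, 129 of them Aire-stage. Thinned secretory-like cells held 2.72 ± 0.28 of the genes per cell (SD, n = 4 samples), keratinocyte-like cells 2.63 ± 0.45, microfold-like cells 2.31 ± 0.32 and enterocyte or hepatocyte-like cells 2.18 ± 0.24. Aire-stage cells held 1.23 ± 0.13 (2.71 before thinning), neuroendocrine-like cells 1.24 ± 0.21 and tuft-like cells 1.08 ± 0.08. Ciliated-like cells held 0.96, muscle-like cells 0.31 and thymocyte-like cells 0.32. A rare gene was found in 8.25%, 15.6%, 11.5% and 8.66% of thinned Aire-stage cells, a mean of 11% ± 3.37 (18.9% before thinning). Enterocyte or hepatocyte-like cells had a higher mean with a wider spread, 20.6% ± 10.4, so the 2 classes overlapped. Ciliated-like cells had 9.23%, microfold-like cells 8.46% ± 0.87, secretory-like cells 6.81%, tuft-like cells 2.05%, immature mTECs 1.03% and thymocyte-like cells 1.47%.

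**Figure D4:**
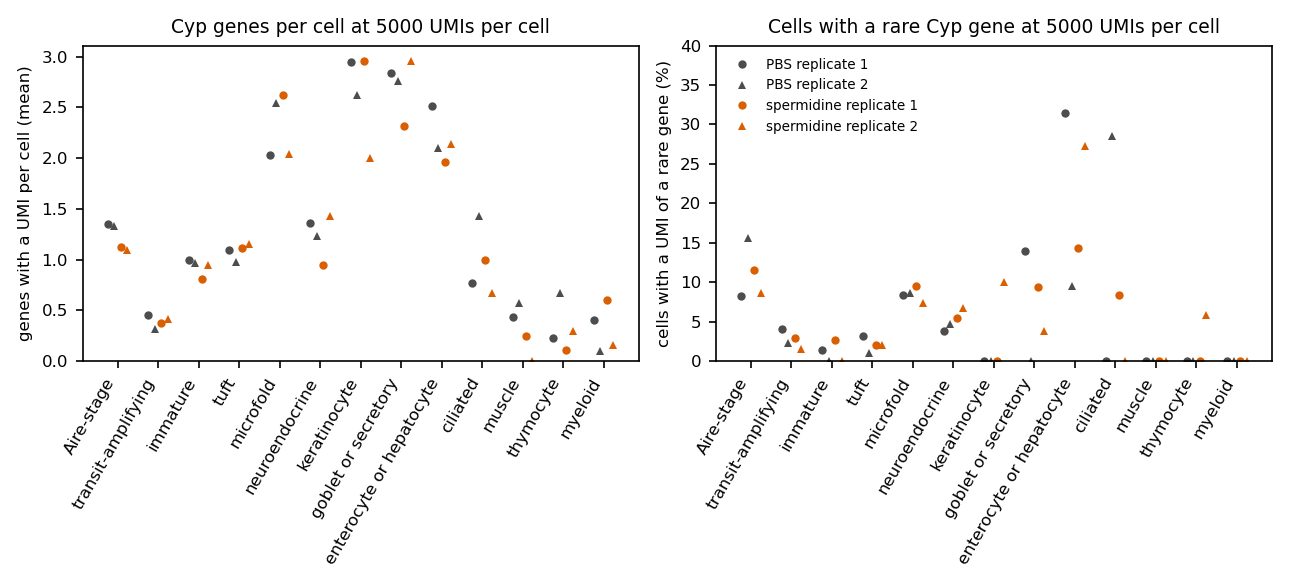
For cells thinned to 5000 UMIs, the number of different P450 genes per cell and the percentage of cells with a rare P450 gene, by class, with 1 point per sample. Secretory-like, keratinocyte-like, microfold-like and enterocyte or hepatocyte-like cells lead in genes per cell (means of 2.18 to 2.72 against 1.23 in Aire-stage cells), and enterocyte or hepatocyte-like and Aire-stage cells lead in rare genes.

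Several genes found in few cells were strongly positive in those cells, although the median rare gene had only 2.45 UMIs per positive cell. Cyp1a2, just above the limit of 1% of cells, the hepatic enzyme that oxidises caffeine, had 439 UMIs in 44 cells, 10.0 per positive cell, with up to 63 in 1 cell, and 97.5% of its UMIs were in Aire-stage cells. There it was at 6.35, 9.90, 25.1 and 20.1 CPM, in 3.1% of the cells. Its neighbour Cyp1a1, which like it is induced through Ahr, had 83 UMIs in 22 cells, 92.8% of them in Aire-stage cells. Cyp2c55, a P450 of the colon, had 72 UMIs in only 9 cells, 40 of them in 1 cell, and 67 of its Aire-stage UMIs were in 4 cells of spermidine replicate 1. Cyp2e1, the ethanol-oxidising P450 of the liver, had 66 UMIs in 10 cells, and its Aire-stage UMIs in the 4 samples were 23, 5, 35 and 1. Cyp2c54 (54 UMIs in 11 cells) and Cyp2c37 (42 in 15) lay wholly in Aire-stage cells. Cyp4a14, a fatty acid hydroxylase controlled by Ppara, had 24 UMIs in 5 cells, with 21 of them in 2 cells of PBS replicate 2. Of 28 rare genes with at least 20 UMIs, 15 had over 30% of their UMIs in 1 cell, so for these 15 a sample's level rested on a handful of cells.

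The Aire-stage class joined 4 clusters, and the genes divided among them. Clusters 2 and 3 had the highest Aire levels (1047 and 1033 CPM), cluster 6 had 417 and cluster 11, led by Klk1b genes, had 285. The transit-amplifying clusters 4 and 10 had 756 and 638 CPM. Against all other cells, the log2 fold of Aire was 0.01 in cluster 6 (460 cells) and -0.55 in cluster 11 (72 cells). Of 18 Aire-stage markers, 4, 9, 5 and 5 were over 2-fold in clusters 2, 3, 6 and 11. Cyp1a2 was at 13.98, 32.3, 0.84 and 0 CPM in clusters 2, 3, 6 and 11, whereas Cyp2a5 ran the other way, at 37.8, 61.5, 209 and 551 CPM. The UMIs of Cyp2a5 were 181, 677, 1488 and 743 in the same order. Most of the Cyp2a5 RNA of the class thus lay in clusters 6 and 11, where Aire was not raised. A rare P450 gene was found in 19.6% of thinned cells of cluster 3, against 7.71%, 3.97% and 4.30% in clusters 2, 6 and 11.

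Grouped by the organ of their usual expression, the genes differed in rarity and in their share in Aire-stage cells. All 32 genes of the liver list had a UMI, 26 were rare and 25 had over 50% of their UMIs in Aire-stage cells. The median share was 78.1%, with a median of 12 positive cells. Of protein-coding genes with a UMI, 22.5% were rare. Among those rare genes, 73.9% had over 50% of their UMIs in Aire-stage cells, with a median share of 82.9%. The liver list, made up mostly of rare genes, thus lay near the level of other rare genes. The highest class of the liver genes was Aire-stage for 15 and enterocyte or hepatocyte-like for 6. Of the 5 gut genes (Cyp2c55, Cyp2c65, Cyp2c66, Cyp2j6 and Cyp3a13), 3 were rare and the median share was 54.2%. The 5 airway and olfactory genes (Cyp2f2, Cyp4b1, Cyp2s1, Cyp2g1 and Cyp2a5) had a median of 294 positive cells and a median share of 21.4%, and 1 was rare. Both epidermal genes were restricted to keratinocyte-like cells by level, although Cyp4f39 had 53.1% of its UMIs in Aire-stage and 23.1% in keratinocyte-like cells. Cyp2a5 stands in both the liver and the airway list.

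Most of the genes lie in clusters of related copies, and these differed in how they were used. The Cyp2a, Cyp2b, Cyp2f, Cyp2g, Cyp2s and Cyp2t genes at chr7:25802475-27158668 (build mm10) are 13 genes with 20649 UMIs. They include genes with their highest mean in Aire-stage (5), keratinocyte-like, secretory-like and microfold-like cells (2 each). The 14 Cyp2c genes at chr19:39007019-40187333 had 620 UMIs, and 7 of them were highest in Aire-stage cells. The 8 Cyp4f genes on chromosome 17 had 4866 UMIs with none highest in Aire-stage cells, and of the 7 Cyp4a, Cyp4b and Cyp4x genes on chromosome 4, with 201 UMIs, 6 were. These counts by highest mean include genes with as few as 1 UMI. Related copies share sequence at the end that is counted: over the last 500 bases, 74.3% of the 50-base stretches of Cyp2c40, 66.7% of Cyp4a32, 51.2% of Cyp2c67 and Cyp2c68 each and 44.3% of Cyp2a4 also occur in another gene. Counts of these genes are uncertain. The share was 12.4% for Cyp2a5, 30.4% for Cyp2c37 and 27.1% for Cyp2c54.

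Some directly adjacent genes were found in the same Aire-stage cell. Of 6 adjacent pairs with no shared end sequence and each gene in at most 5% of the cells, 5 shared at least 1 cell, with a mean of 21.5% of the rarer gene's cells. Among 713 such pairs on different chromosomes, 177 (24.8%) did, with a mean of 3.04%. Over all 58 such pairs within a locus, adjacent or not, 17 (29.3%) did, with a mean of 5.35%. Of the 15 shared cells of the adjacent pairs, 8 were of Cyp1a1 with Cyp1a2 and 4 of Cyp2j9 with Cyp2j5. The pairs Cyp2c66 with Cyp2c29, Cyp3a44 with Cyp3a11 and Cyp3a11 with Cyp3a25 shared 1 cell each. Cyp1a1 and Cyp1a2, at chr9:57676937-57703824, were together in 8 cells, which is 47.1% of the 17 Aire-stage cells with Cyp1a1. Among commoner genes, 93 of the 129 Aire-stage cells with Cyp2g1 (72.1%) also held Cyp2a5, which was found in 33.5% of all Aire-stage cells. Cell depth and cluster, which the genes of a pair share, were not separated from this, and no test was made.

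The partners and regulators of the enzymes were followed by class. All 17 listed genes had UMIs, and 2 were restricted to a class. Por, the electron donor, was highest in secretory-like cells at 157 ± 69.5 CPM, and Alas1, the first enzyme of haem synthesis, in enterocyte or hepatocyte-like cells at 286 ± 34.7 CPM. Cyb5b was restricted to enterocyte or hepatocyte-like cells (279 ± 35.1 CPM) and Cyb5r3, the cytochrome b5 reductase, to neuroendocrine-like cells (217 ± 13.8 CPM). Ahr was low in Aire-stage cells, at 2.72 CPM over the pooled class, and highest in myeloid-like cells at 102 ± 54.0 CPM. Of 19 listed P450 genes of other families, 18 had a UMI and 5 were restricted to a class (19.3% of all genes were), among them Cyp7b1, the oxysterol hydroxylase, in neuroendocrine-like cells at 470 ± 76.9 CPM. Cyp7a1, the first enzyme of bile acid synthesis, had 0 UMIs.

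No P450 gene of families 1 to 4 differed between spermidine and PBS past an adjusted p of 0.05 in edgeR's quasi-likelihood test, either in all mTECs or in Aire-stage or mimetic cells. The test was run on the UMIs of each sample summed over cells, adjusted by Benjamini and Hochberg over all genes, and a difference is the log2 of spermidine over PBS. In such sums, fewer cells of a type and less RNA per cell cannot be told apart. In the sums over all mTEC classes, 41 of the genes were tested and 0 were called, as were 0% of 21447 genes; at an unadjusted p under 0.05 there were 11 of 41, against 15% of all genes. The fitted difference was above 0 for 15 (50% of all genes) and below for 26, with a median of -0.19 (median over all genes 0.00). Without PBS replicate 2 the median turned to 0.13. With 2 samples a group, an exact permutation test of a single gene could not go below p = 0.333.

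Over all mTECs, the genes with the smallest p were Cyp2a5, Cyp2g1 and Cyp4f18 on the lower side and Cyp1a1, Cyp1a2 and Cyp2b10 on the higher side. Levels from here on are CPM scaled by edgeR's TMM factors. Cyp2a5 was at 269 and 288 in PBS and 200 and 166 in spermidine, and Cyp2g1 at 60.5 and 49.7 against 33.8 and 37.2. The differences were -0.61 (SE 0.116) for Cyp2a5 and -0.64 (SE 0.126) for Cyp2g1, with edgeR adjusted p = 0.206 and 0.209. In its leading classes Cyp2a5 went opposite ways, with differences of -0.55 in microfold-like and 0.56 in secretory-like cells (edgeR adjusted p = 0.892 and 0.918). Cyp2g1 RNA lay largely in tuft-like cells, a smaller share of the spermidine samples. Within tuft-like cells its level was 130 and 121 in PBS and 136 and 127 in spermidine. Within neuroendocrine-like cells Cyp2g1 was at 33.6 and 78.1 against 8.96 and 0. What the shares of classes contribute to its difference was not tested. Cyp4f18 was at 8.22 and 7.89 in PBS and 3.36 and 5.39 in spermidine (difference -0.89, SE 0.286, edgeR adjusted p = 0.275), with 43.9% of its UMIs in Aire-stage cells. Its difference was -0.15 with hashtags called on the 4 labelled ones only, and that of Cyp2a5 was -0.21 with at most 10 UMIs counted per cell. On the higher side, Cyp1a2 was at 1.60 and 4.25 in PBS and 12.2 and 9.48 in spermidine (difference 1.92, SE 0.473, edgeR adjusted p = 0.234), and the difference was 0.95 with the same limit per cell. Cyp1a1 was at 0.285 and 0.387 in PBS and 2.89 and 1.39 in spermidine (difference 2.67, SE 0.578, edgeR adjusted p = 0.220). Cyp2b10, a liver P450 induced through the receptor CAR, was at 0.799 and 0.541 in PBS and 2.15 and 2.16 in spermidine (difference 1.66, SE 0.409, edgeR adjusted p = 0.234), and 0.70 with hashtags called on the 4 labelled ones only. These 3 lay mainly in Aire-stage cells, a larger share of the spermidine samples, and what this share contributes was not tested. DESeq2 on the same sums called 3 of the genes (Cyp2a5 and Cyp2g1 lower, Cyp1a2 higher) and 2.15% of all genes, and edgeR without PBS replicate 2 called Cyp2g1 and Cyp1a2 and 2.53% of all genes. With no filter on low counts, edgeR called 13 of 74 and 6.43% of all genes.

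Within Aire-stage cells, where the shares of other classes do not enter, 32 of the genes were tested and 0 called by edgeR or DESeq2. Over all 18082 genes edgeR called 0% and DESeq2 0.52%, and with no filter on low counts edgeR called 6 of 74 and 3.12%. At an unadjusted p under 0.05 there were 6 of 32, against 7.82% of all genes. Differences were above 0 for 9 (49.7% of all genes) and below for 23, with a median of -0.13, which turned to 0.30 without PBS replicate 2. The make-up of the class itself differed, since clusters 2 and 3 gave 117 of 230 and 117 of 240 Aire-stage cells in PBS and 277 of 437 and 177 of 313 in spermidine. Cyp1a2 was at 6.35 and 10.1 in PBS and 25.4 and 20.02 in spermidine (difference 1.46, SE 0.298, edgeR adjusted p = 0.547). These levels came from 26 and 48 UMIs in 6 and 8 cells of the PBS samples and 232 and 122 UMIs in 17 and 7 cells of the spermidine samples. With at most 10 UMIs counted per cell the difference was 0.48. Within clusters 2 and 3 alone, which hold nearly all Cyp1a2 UMIs, the levels were 10.9 and 18.6 against 34.2 and 30.3 (difference 1.13, SE 0.309, edgeR adjusted p = 0.770). In spermidine replicate 2 the Cyp1a2 cells were therefore no more numerous than in the PBS samples but held more UMIs. Cyp1a1 had 3 and 5 UMIs in PBS and 55 and 14 in spermidine, in 2, 2, 11 and 2 cells, and 78.6% of the UMIs of spermidine replicate 2 were in 1 cell (difference 2.20, SE 0.709, edgeR adjusted p = 0.583). Cyp2b10 was at 2.69 and 1.26 against 4.16 and 4.27 (difference 1.10, SE 0.529, edgeR adjusted p = 0.689), with 84.6% of the UMIs of spermidine replicate 2 in 1 cell. With hashtags called on the 4 labelled ones only, the Cyp2b10 difference was 0.19.

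On the lower side in Aire-stage cells, Cyp2c68 had 9 and 9 UMIs in PBS and 1 and 1 in spermidine (difference -3.75, SE 0.804, edgeR adjusted p = 0.553), and its counts are uncertain because of shared end sequence. Cyp4f14, a leukotriene B4 hydroxylase, was at 11.5 and 13.9 in PBS and 6.23 and 6.07 in spermidine (difference -1.04, SE 0.256, edgeR adjusted p = 0.553), and 1 cell held 87.9% of its UMIs in PBS replicate 2. With at most 10 UMIs counted per cell its difference was -0.02. Cyp4f18 was at 9.53 and 12.8 against 4.48 and 5.58 (difference -1.16, SE 0.313, edgeR adjusted p = 0.560), and with hashtags called on the 4 labelled ones only the difference was -0.10. The groups did not overlap for Cyp2c68, Cyp4f14 or Cyp4f18 in the values given, but genes chosen by smallest p tend to show such a gap.

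In the mimetic classes together, 25 of the genes were tested and 0 were called by edgeR or DESeq2. Of all 16516 genes edgeR called 0.00605%, which is the single gene Actc1, a muscle actin, and DESeq2 called 0.236%. With no filter on low counts, edgeR called 3 of 63 (Cyp2b19, Cyp2a5 and Cyp2f2) and 1.98% of all genes. At an unadjusted p under 0.05 there were 4 of 25, against 7.17% of all genes, and differences were above 0 for 10 (48.7% of all genes) and below for 15. Cyp2j13 was at 6.28 and 6.92 in PBS and 11.4 and 12.9 in spermidine (difference 0.88, SE 0.213, edgeR adjusted p = 0.555). Its leading class, the microfold-like cells, gave 56.9 and 40.3 against 99.7 and 123 (difference 1.17, edgeR adjusted p = 0.70). Cyp2f2 was at 40.9 and 37.2 against 42.1 and 93.1, so that only spermidine replicate 2 stood apart (difference 0.77, SE 0.339, edgeR adjusted p = 0.711), and without that sample the difference was 0.10. Cyp2d12 differed by 0.58 (SE 0.298, edgeR adjusted p = 0.744). Lower in spermidine were Cyp2g1, at 96.0 and 95.2 against 77.9 and 83.4 (difference -0.25, SE 0.081, edgeR adjusted p = 0.646), and Cyp2b19, at 34.6 and 28.5 against 26.1 and 15.4 (difference -0.59, SE 0.241, edgeR adjusted p = 0.696). Cyp3a11, the main hepatic CYP3A of the mouse, differed by -1.34 (SE 0.512, edgeR adjusted p = 0.673). Keratinocyte-like cells, the leading class of Cyp2b19, were 3.5% and 2.8% of the PBS samples and 2.1% and 1.3% of the spermidine samples. What these shares contribute was not tested.

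**Figure D5:**
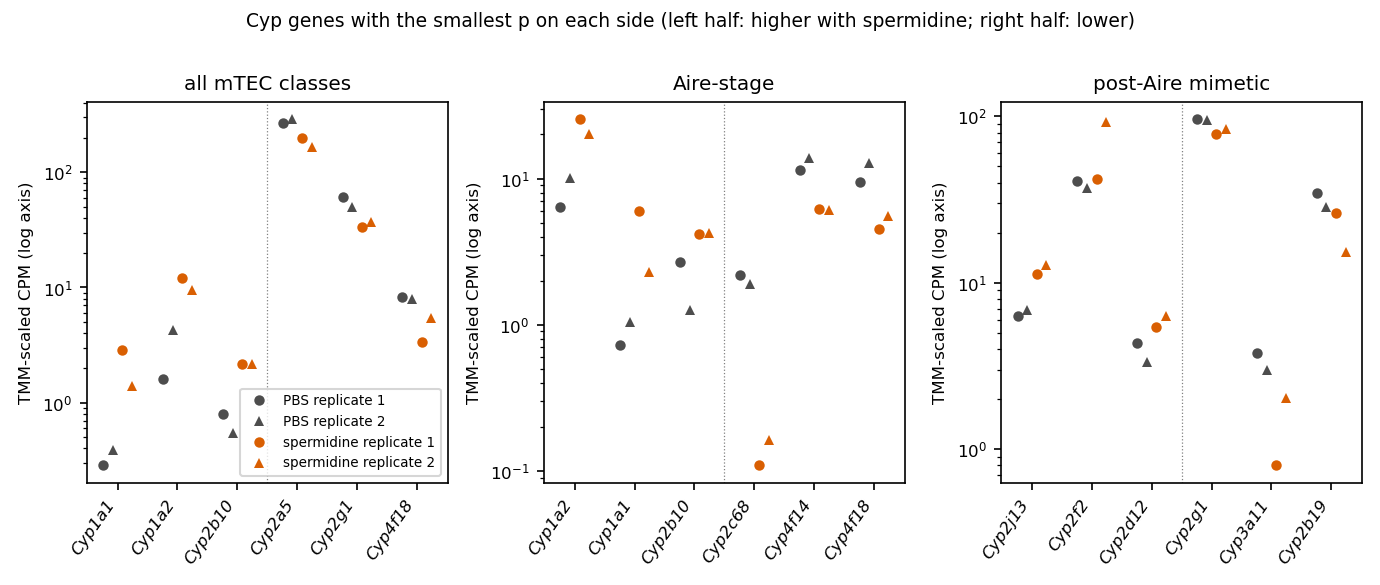
TMM-scaled CPM (log axis) in each of the 4 samples for the 3 P450 genes of smallest p in either direction, in all mTEC classes, Aire-stage cells and mimetic classes, with PBS and spermidine in different colours. In all mTEC classes each gene's PBS points lie apart from its spermidine points, for instance Cyp2a5 at 269 and 288 against 200 and 166, and no difference passed an adjusted p of 0.05. The genes were chosen by smallest p, which favours such a gap.

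In the 7 single classes with enough cells for a fit, 0 of the genes were called by edgeR. Of all genes, it called 0.218% in transit-amplifying, 0.11% in tuft-like, 0.0129% in secretory-like and 0.0447% in enterocyte or hepatocyte-like cells and 0% in immature, microfold-like and neuroendocrine-like cells. At an unadjusted p under 0.05 there were 3 of 11 in neuroendocrine-like cells (5.22% of all genes), 2 of 9 in tuft-like (10.2%), 2 of 11 in microfold-like (5.25%) and 2 of 12 in secretory-like cells (5.38%). There was 1 of 5 in immature (5.65%), 1 of 7 in enterocyte or hepatocyte-like (4.75%) and 0 of 5 in transit-amplifying cells (7.93%). In neuroendocrine-like cells, Cyp2f2 had 46 and 28 UMIs in 4 of 83 and 3 of 43 cells of the PBS samples. It had 0 and 0 UMIs in the 56 and 32 cells of the spermidine samples (edgeR adjusted p = 0.134). In secretory-like cells, Cyp3a25 had 43 and 42 UMIs in 3 of 62 and 2 of 33 cells of the PBS samples. It had 0 and 0 UMIs in the 34 and 29 cells of the spermidine samples (edgeR adjusted p = 0.202). Single cells held 76.7% and 95.2% of the Cyp3a25 UMIs of the PBS samples. With so few positive cells, these zeros do not bound a fold. Cyp2a5 and Cyp2g1 in neuroendocrine-like cells differed by -2.62 and -3.23 (edgeR adjusted p = 0.443 and 0.577). Single cells held a large part of the Cyp2a5 UMIs of each sample there, as given above. The Cyp2g1 levels were 33.6 and 78.1 in PBS and 8.96 and 0 in spermidine, from the same 83, 43, 56 and 32 cells. A test of whether the difference between spermidine and PBS itself differed between mimetic and Aire-stage cells called 0 of 37 P450 genes and 0% of 19759 genes; at an unadjusted p under 0.05 there were 5 of 37, against 6.82% of all genes. The smallest p of the 5 was that of Cyp2c68, at 3.66 for mimetic minus Aire-stage (edgeR adjusted p = 0.537), which rests on the few Aire-stage UMIs given above.

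By list, 0 genes were called in any of the tissue lists in the 3 comparisons. In all mTEC classes, 15 liver genes were tested, with 6 differences above 0, 9 below and a median of -0.20. All 4 tested airway and olfactory genes lay below 0, with a median of -0.59. The 4 airway genes also lay below 0 in Aire-stage cells, with a median of -0.59, and 3 of them did in mimetic cells. Of all genes, 50%, 49.7% and 48.7% had a difference above 0 in these comparisons. The 4 genes (Cyp2a5, Cyp2g1, Cyp2f2 and Cyp2s1) lie in the same locus on chromosome 7. Within the Aire-stage class, Cyp2a5, Cyp2g1 and Cyp2f2 were highest in clusters 6 and 11, and Cyp2s1 in clusters 2 and 3. Clusters 6 and 11 were a smaller share of that class in the spermidine samples. What this share contributes was not tested. Among 17 partners and regulators, 0 were called in all mTEC classes and 3 had an unadjusted p under 0.05, a share near the 15% of all genes. They were Ahrr, Ppara and Tiparp. Ahrr, the repressor induced by Ahr together with Cyp1a1, had only 64 UMIs in 20 cells, with its highest mean in Aire-stage cells (1.67 ± 2.14 CPM). Those cells were a larger share of the spermidine samples, and what this share contributes was not tested. Ahrr was at 0.114 and 0.155 in PBS and 2.63 and 0.771 in spermidine (difference 3.63, edgeR adjusted p = 0.228). Tiparp, another Ahr target, lay the other way, at 69.9 and 53.4 against 47.1 and 48.8 (difference -0.37, edgeR adjusted p = 0.333), and Ahr itself was at 7.53 and 7.12 against 5.57 and 4.93 (difference -0.48, edgeR adjusted p = 0.354). Ppara, the fatty acid receptor, was at 1.66 and 1.55 against 2.47 and 3.70 (difference 0.93, edgeR adjusted p = 0.330). Of 14 tested P450 genes of other families 0 were called and 4 had an unadjusted p under 0.05 (Cyp26a1, Cyp26b1, Cyp51 and Cyp7b1), beside 15% of all genes. Cyp26b1, a retinoic acid hydroxylase, was at 1.54 and 1.08 in PBS and 5.57 and 6.78 in spermidine (difference 2.21, edgeR adjusted p = 0.205), and 2.93 and 1.47 against 9.41 and 13.3 within Aire-stage cells (difference 2.37, edgeR adjusted p = 0.532).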

How the data were processed

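Single-cell RNA and hashtag libraries of 4 hashed samples (2 PBS, 2 spermidine) were used. The deposited counts are UMIs for each gene in each barcode. Per the file headers, they come from Cell Ranger 7.1.0, and they were mapped to build mm10 per the submitters' processing notes; these UMIs count 3′ ends, so levels need no length scaling. Hashtags were called here with HTODemux (Seurat 5.3.0) on all 6 hashtags in the files, of which HT6 and HT7 have no sample in the labels. Of 8534 barcodes with at least 1000 UMIs, 500 genes and under 15% mitochondrial UMIs, 3739 were kept, 2432 were HT6 or HT7, 1831 doublets and 532 negative. Doublets within a sample cannot be seen this way, and no other caller was run. There is 1 library, so no barcodes are shared between libraries. All passing barcodes were clustered with scanpy 1.11.5 (2000 variable genes without the P450 genes, 30 components, 15 neighbours, Leiden resolution 1), and classes were named from marker lists, so shares rest on names rebuilt here. Median UMIs per cell were 14549 and 15927.5 for PBS and 16812 and 16571.5 for spermidine. Sums per sample were tested with edgeR 4.0.16 (TMM, filterByExpr, quasi-likelihood), with DESeq2 1.42.0 as an alternative; the scripts were tested on simulated data. The genes and lists were chosen with earlier results of these data known. Genes are named where they are among the 20 with the most UMIs, lead a class, are among the 3 smallest p on each side of a comparison or pass a threshold; the rare genes, Cyp2c40, Cyp4a32, Cyp2c67 and Cyp2a4 were named after their values were seen, as were Alas1, Ahr and the genes of single-class comparisons. Alternatives were other hashtag calls, cluster resolutions, scalings and filters, a cap on UMIs per cell, a replicate block and leaving out each sample.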

Additional observations from a re-analysis of the deposited data

Results flagged for a closer look

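Cyp2d11 had 0 UMIs in the 3739 cells of the 4 labelled samples, which allows a share of up to 0.0802% of cells with a UMI. It had 5 UMIs in barcodes outside those samples, namely 1 in cells marked by HT6, 3 in hashtag doublets and 1 in barcodes without a hashtag call, and 0 in cells marked by HT7.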

How the results depend on the processing

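The number of genes called between spermidine and PBS depended on the tool and on the filter for low counts. In all mTEC classes 0 genes were called by edgeR as fitted, 462 by DESeq2, 2415 without the low-count filter and 0 to 590 when 1 sample was left out; the P450 genes among them were 0, 3, 13 and 0 to 2. In Aire-stage cells the counts were 0, 94, 1097 and 0 to 0, with 0, 0, 6 and 0 to 0 P450 genes. In mimetic classes they were 1, 39, 622 and 2 to 10, with 0, 0, 3 and 0 to 0 P450 genes, and a cap of 10 UMIs per cell gave 0 genes. Leaving out 1 sample leaves an arm with 1 sample, which is then assumed to vary like the other group. Some calls without the filter rested on a few cells, such as Cyp4a10, with 26 UMIs in 3 Aire-stage cells of PBS replicate 2. The number of P450 genes restricted to a class was 8, was 8 to 16 when 1 sample was left out and 13 at Leiden resolution 0.5. It was 7 under the margin rule for hashtags, which lost Cyp1a2, Cyp2j6 and Cyp4f39, 7 with at least 50 UMIs, 9 at Leiden resolution 2, which lost Cyp2f2, and 10 with hashtags called on the 4 labelled ones only, which lost Cyp1a2. The number with over 50% of UMIs in Aire-stage cells was 48 and ran from 36 to 49 over the alternatives, the lowest at Leiden resolution 0.5. None of the P450 genes with the smallest p changed direction under an alternative that was run, but differences shrank, in Aire-stage cells to -0.02 for Cyp4f14 and 0.48 for Cyp1a2 with the cap and to -0.10 for Cyp4f18 and 0.19 for Cyp2b10 with hashtags called on 4 only. In mimetic classes they shrank to 0.10 for Cyp2f2 without spermidine replicate 2, and with the cap to -0.08 for Cyp2g1, -0.24 for Cyp2b19 and 0.31 for Cyp2d12, while Cyp3a11 ran from -2.08 to -0.75 over the samples left out.

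Same-numbered samples showed no sign of a shared shift: their deviations from the group means correlated at -0.02 in all mTEC classes, -0.01 in Aire-stage cells and -0.00 in mimetic classes. With so few samples this cannot show whether they were paired, which the labels do not say. With a replicate block, 0, 0 and 2 genes were called in these 3 comparisons, and 0 P450 genes in each.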
